A study of Mus musculus with 6 samples.

Results

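This account covers 38 genes of DNA replication and mitosis in group 3 innate lymphoid cells (ILC3s). These are lymphocytes that reside in the gut wall, lack antigen receptors and answer cytokines. The 38 were taken by symbol from a fixed list, and all 38 had a row among the 33157 rows of the raw count matrix. ILC3s of wild-type mouse small intestine had been sorted as CD45 dim and CD90.2 high cells that were positive for CD127 and negative for lineage markers and KLRG1. Every culture held recombinant mouse interferon-γ (IFN-γ, a type 1 cytokine) at 20 ng/mL for 4 h, and there was no culture without it. The control group had IFN-γ alone, and the other group also had insulin-like growth factor 1 (IGF-1, a growth factor that signals through PI3K and AKT) at 200 ng/mL. Each group held 3 libraries, with 32573713 to 39206449 counts per library. Age and sex are not given in the labels used here. Whether replicates were separate animals or cultures is not stated in the labels. The p-values therefore measure only how these libraries varied, which may be technical.

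Cells copy their DNA in S phase and divide in M phase, and the genes for the 2 steps are switched on in that order. In late G1, factors of the E2F family drive genes that load the MCM helicase onto origins, supply deoxynucleotides and run the replication fork. In G2, genes with a CHR element and CCAAT boxes in their promoters, bound by the MuvB complex with B-MYB and FOXM1 and by NF-Y, raise cyclin B, CDK1, the mitotic kinases and the spindle proteins. Quiescent lymphocytes keep most of these genes low, while some products such as PCNA and the MCM subunits also persist outside S phase. The list was divided by these roles into 16 S-phase and 22 mitotic genes.

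The promoters of the members carried this division in their sequence. Promoters, from 250 bases before to 50 bases after the gene start, were taken from the RefSeq annotation of GRCm38.p6, which held 31 of the 38 members (13 S-phase and 18 mitotic). The E2F motif was searched as TTTGGCGC, TTTCGCGC, TTCCCGCC or TTTCCCGC, the CHR as TTTGAA or TTCGAA, and the CCAAT box as CCAAT, each on both strands and with overlapping matches allowed. An E2F motif lay in 8 of the 13 S-phase promoters (61.5%), in 1 of the 18 mitotic promoters (5.56%) and in 4.00% of the 27025 genes in the annotation. A CHR lay in 2 of the 13 S-phase promoters (15.4%), in 14 of the 18 mitotic promoters (77.8%) and in 21.7% of all genes. CCAAT boxes lay in 9 of the 13 and 16 of the 18, against 41.1% of all genes. The S-phase promoters with an E2F motif were those of Mcm3, Mcm5, Mcm6, Mcm7, Cdc6, Cdt1, Uhrf1 and Rrm1. These matches are a description of letters in these windows, and no binding was measured.

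Shown here are the stretches just before the start of an S-phase gene with 3 E2F matches (Mcm6), the single member with both E2F and CHR matches among the mitotic genes (Cdk1), a pair of mitotic genes whose values are described further on (Kif11 and Hmgb2) and the common proliferation marker Mki67. Capitals mark the matches to the 3 motifs on either strand, so that a CCAAT box on the other strand reads ATTGG and a CHR reads TTCAAA. The stretches lie at chr1:128359706-128359825 (Mcm6, minus strand), chr10:69352913-69353052 (Cdk1, minus), chr19:37376262-37376381 (Kif11, plus), chr8:57511723-57511842 (Hmgb2, plus) and chr7:135716380-135716579 (Mki67, minus) of GRCm38.p6, and each ends at the base before the gene start.
Mcm6: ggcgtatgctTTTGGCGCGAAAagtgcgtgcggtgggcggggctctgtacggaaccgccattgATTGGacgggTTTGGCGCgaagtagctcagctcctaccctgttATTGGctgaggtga
Cdk1: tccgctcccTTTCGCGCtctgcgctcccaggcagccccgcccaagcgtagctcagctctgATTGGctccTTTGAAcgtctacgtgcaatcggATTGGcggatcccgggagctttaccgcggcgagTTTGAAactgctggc
Kif11: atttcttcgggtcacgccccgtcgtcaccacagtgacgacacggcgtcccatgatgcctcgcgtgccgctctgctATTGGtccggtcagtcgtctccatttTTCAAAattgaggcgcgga
Hmgb2: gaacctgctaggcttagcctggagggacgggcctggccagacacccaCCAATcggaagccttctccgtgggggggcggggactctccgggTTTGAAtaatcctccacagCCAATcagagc
Mki67: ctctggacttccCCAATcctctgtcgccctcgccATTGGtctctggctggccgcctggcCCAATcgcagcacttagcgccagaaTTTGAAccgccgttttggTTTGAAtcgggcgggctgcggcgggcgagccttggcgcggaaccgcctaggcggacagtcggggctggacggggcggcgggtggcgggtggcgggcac

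In Mcm6 the first pair of E2F matches overlap, and its CCAAT boxes begin 57 and 14 bases before the start. In Kif11 a single CHR begins 19 bases before the start and a CCAAT box 45 bases before it. In Hmgb2 the nearer CHR begins 30 bases before the start, between CCAAT boxes that begin 73 and 11 bases before it. The promoters of Tk1, E2f1, Birc5 and Nusap1 held no match to any of the 3 motifs in this window.

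**Figure D1:**
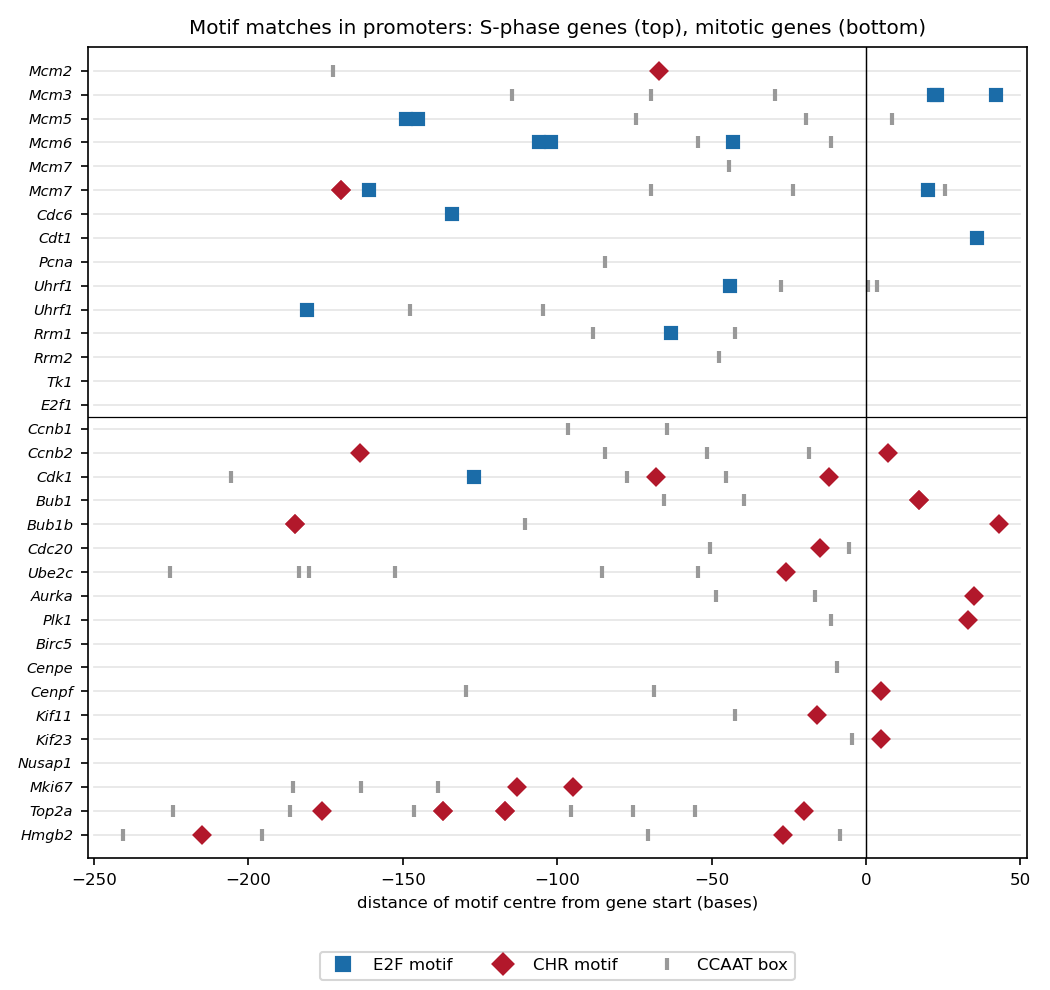
Position of each motif match, as the distance in bases of its centre from the gene start (x axis), in the promoters of 31 members (y axis; Mcm7 and Uhrf1 have 2 annotated starts). Squares mark E2F motifs, diamonds CHRs and short bars CCAAT boxes. Squares fall on S-phase genes apart from Cdk1, and most diamonds on mitotic genes.

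The S-phase genes had a higher median level than the mitotic genes, with overlapping ranges. Values are CPM, counts put on a common library total with TMM factors, and for levels compared between genes CPM per kb of exon (exon lengths from GENCODE vM21 of GRCm38, since the authors' annotation release is not given in the sources used here). The S-phase genes had a median level of 4.46 CPM per kb over the 6 libraries and the mitotic genes a median of 0.446, a ratio of 9.99, while the median over all genes tested was 5.28. Of the 16 S-phase genes 6 lay above the median of all genes on this per-length scale, and of the 22 mitotic genes 2 did, Hmgb2 and Stmn1. Together the 38 genes took 0.0704% of scaled counts in the control group and 0.0648% with IGF-1.

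The per-length plot shows where each gene stood. Pcna, the sliding clamp of DNA polymerase, was at 50.2 CPM per kb, above 90.7% of the genes tested. Hmgb2, a chromatin protein that bends DNA and is also made outside the cell cycle, was at 43.8 CPM per kb, above 89.5%. At the other end stood the checkpoint kinase Bub1 (0.0801 CPM per kb) and the kinetochore protein Cenpf (0.0720 CPM per kb, above 1.70% of the genes tested). Mki67, which coats mitotic chromosomes, was at 0.777 CPM per kb, above 20.1%, and Top2a, the topoisomerase that untangles them, at 1.02 CPM per kb, above 22.9%.

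**Figure D2:**
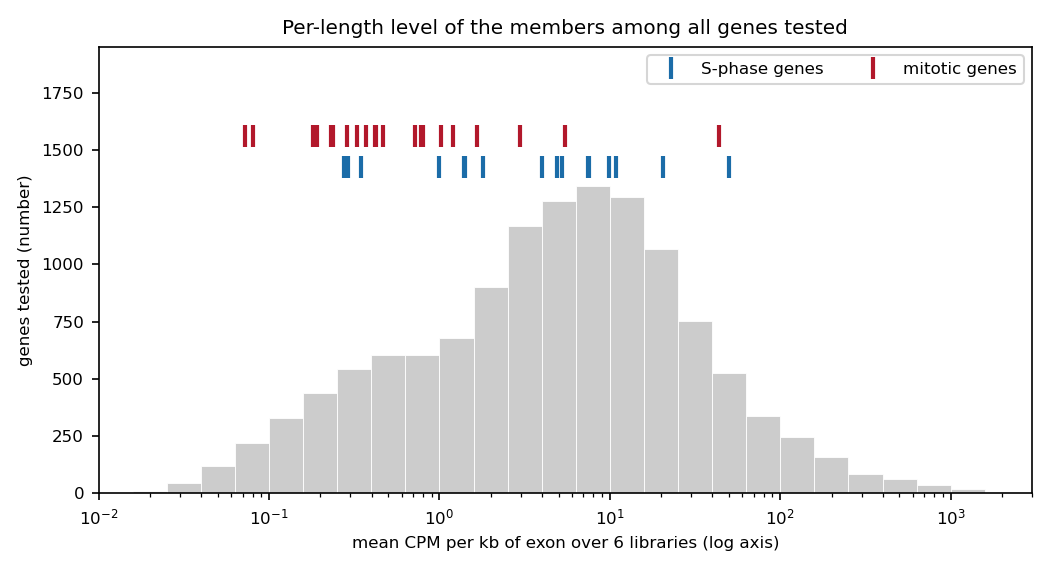
Histogram of the mean level of all genes tested with a known length, in CPM per kb of exon (x axis, log), with the number of genes on the y axis. Ticks above the histogram mark the 16 S-phase and 22 mitotic genes. The S-phase ticks spread across the histogram to 50.2 CPM per kb (Pcna), and all mitotic ticks but those of Hmgb2 and Stmn1 lie below the median of 5.28.

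With so low a level the mitotic genes rested on few reads. Of the 38 genes 27 had a mean under 10 CPM and 3 a mean under 1 CPM (E2f1, Bub1 and Ube2c). Bub1, Ccnb1 and Ube2c had libraries with 0 counts, which at 3 counts per library allows up to 0.0765 to 0.0921 CPM there. All 38 passed the filter on low counts. Bub1 passed with 1 control library and all 3 IGF-1 libraries over the minimum of 0.275 CPM, and E2f1 with 1 control and 2 IGF-1 libraries, so their being tested depended on the group where they were higher. Kif11 and Cdc6 each had 2 control and all 3 IGF-1 libraries over that minimum.

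The comparison asked whether IGF-1 changed these genes in ILC3s exposed to IFN-γ. None of the 38 passed edgeR's quasi-likelihood test over 13483 genes at an adjusted p under 0.05 (0 higher, 0 lower), where 0.497% of all genes passed. With the threshold at 0.1 there was 1, Hmgb2, where 1.07% of all genes passed. At an unadjusted p under 0.05 there were 2, Hmgb2 and Kif11, against 11.8% of all genes. DESeq2 gave an adjusted p for 23 members and called 1, Hmgb2, lower, where it called 4.20% of the 10864 genes with one. In 7 of the 38 the ranges of the control and IGF-1 libraries did not touch, 4 higher with IGF-1 (Kif11, Birc5, Cdk1, Bub1) and 3 lower (Hmgb2, Mcm6, Mcm7). That is 18.4% of the members, near the 18.0% of all genes tested (8.81% higher and 9.17% lower), so the share says nothing particular about the list. Log2 fold changes are IGF-1 over control, with a standard error (SE) or a 95% confidence interval.

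**Figure D3:**
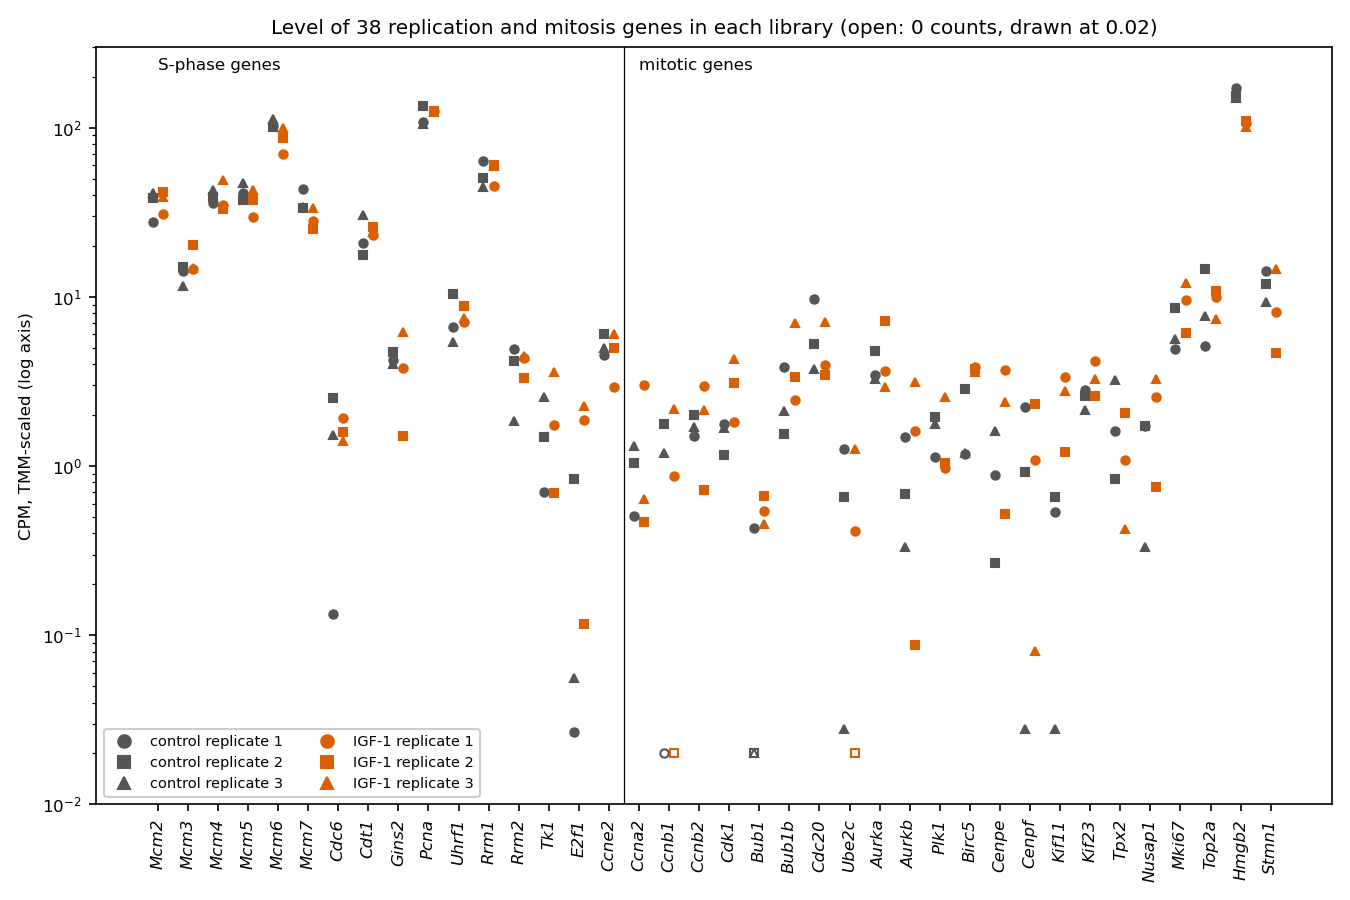
Level of each of the 38 genes (x axis) in each library, in TMM-scaled CPM (y axis, log). Grey symbols are control and orange symbols IGF-1 libraries, shapes give the replicate, and open symbols are libraries with 0 counts. Hmgb2, Pcna and Mcm6 stand highest, and most mitotic genes lie between 0.3 and 10 CPM with overlapping groups.

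None of the licensing genes passed. MCM2 to MCM7 form the ring-shaped helicase that is loaded at origins in G1, with 1 copy of each subunit per ring. Mcm6 was at 102, 101 and 112 CPM in the control libraries and at 69.6, 86.4 and 99.4 CPM with IGF-1. The groups did not overlap, but the log2 fold change of -0.31 (SE 0.15, 95% interval -0.63 to 0.02, adjusted p = 0.455) did not pass, and with library size scaling alone the groups overlapped. Mcm7 was at 43.2, 33.7 and 34.0 CPM against 27.9, 25.3 and 33.6 CPM, with a gap between groups smaller than the spread within either (log2 fold change -0.35, SE 0.17, adjusted p = 0.470). Mcm5 was at 41.1, 37.3 and 47.1 CPM against 29.6, 37.6 and 43.0 CPM, overlapping (log2 fold change -0.19, SE 0.17, adjusted p = 0.750). Mcm2, Mcm3 and Mcm4 had log2 fold changes of 0.06, 0.28 and -0.01.

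Per length the 6 subunits were not equal. Mcm6 was highest in all 6 libraries (mean 20.4 CPM per kb) and Mcm3 lowest in all 6 (mean 4.02 CPM per kb), a ratio of 5.07 between them. Mcm4 (10.9), Mcm5 (9.84), Mcm7 (7.45) and Mcm2 (5.23 CPM per kb) lay between. Mcm4 and Mcm5 did not differ beyond their spread over libraries (9.17 to 13.6 and 7.41 to 11.8 CPM per kb). These ratios rest on annotated exon lengths and on how reads from related sequences were counted, which was not tested.

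The loaders of the helicase were lower and less even. Cdt1, which brings the MCM ring to origins, stood at 23.0 ± 6.56 CPM (SD, n = 3) in control and 24.4 ± 1.29 CPM with IGF-1. Its partner Cdc6 stood at 1.40 ± 1.21 and 1.65 ± 0.26 CPM, with 5 counts in control replicate 1 against 53 to 85 in the other 5 libraries. Gins2, a subunit of the active helicase, stood at 4.32 ± 0.35 and 3.85 ± 2.36 CPM. Their log2 fold changes were 0.08 (Cdt1), 0.23 (Cdc6) and -0.16 (Gins2), and the groups overlapped for each.

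None of the fork and nucleotide genes passed. Pcna was at 108, 134 and 105 CPM in control and at 126, 126 and 123 CPM with IGF-1, inside the control range (log2 fold change 0.11, adjusted p = 0.808). The 95% interval of its log2 fold change, -0.17 to 0.40, is the narrowest among the S-phase genes. Rrm1, the large subunit of ribonucleotide reductase, was at 63.9, 50.6 and 44.6 CPM against 45.5, 60.2 and 59.1 CPM, also overlapping (log2 fold change 0.05, SE 0.17). Rrm2, the small subunit whose level rises in S phase, stood at 3.66 ± 1.62 and 4.06 ± 0.63 CPM. Thymidine kinase Tk1 stood at 1.59 ± 0.94 and 2.02 ± 1.47 CPM, and Uhrf1, which keeps DNA methylation through replication, at 7.50 ± 2.64 and 7.80 ± 0.89 CPM.

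The regulators of S-phase entry were at low levels. E2f1 had 1, 28 and 2 counts in the control libraries and 73, 4 and 85 with IGF-1, so single libraries in each group stood apart (log2 fold change 2.21, SE 1.36, adjusted p = 0.578). Cyclin E2 (Ccne2) stood at 5.18 ± 0.77 and 4.65 ± 1.59 CPM. Over the 16 S-phase genes the median log2 fold change was 0.06, with 10 positive and 6 negative, and over all genes tested it was -0.01. Without control replicate 1 the median was -0.05 and without control replicate 3 -0.01.

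**Figure D4:**
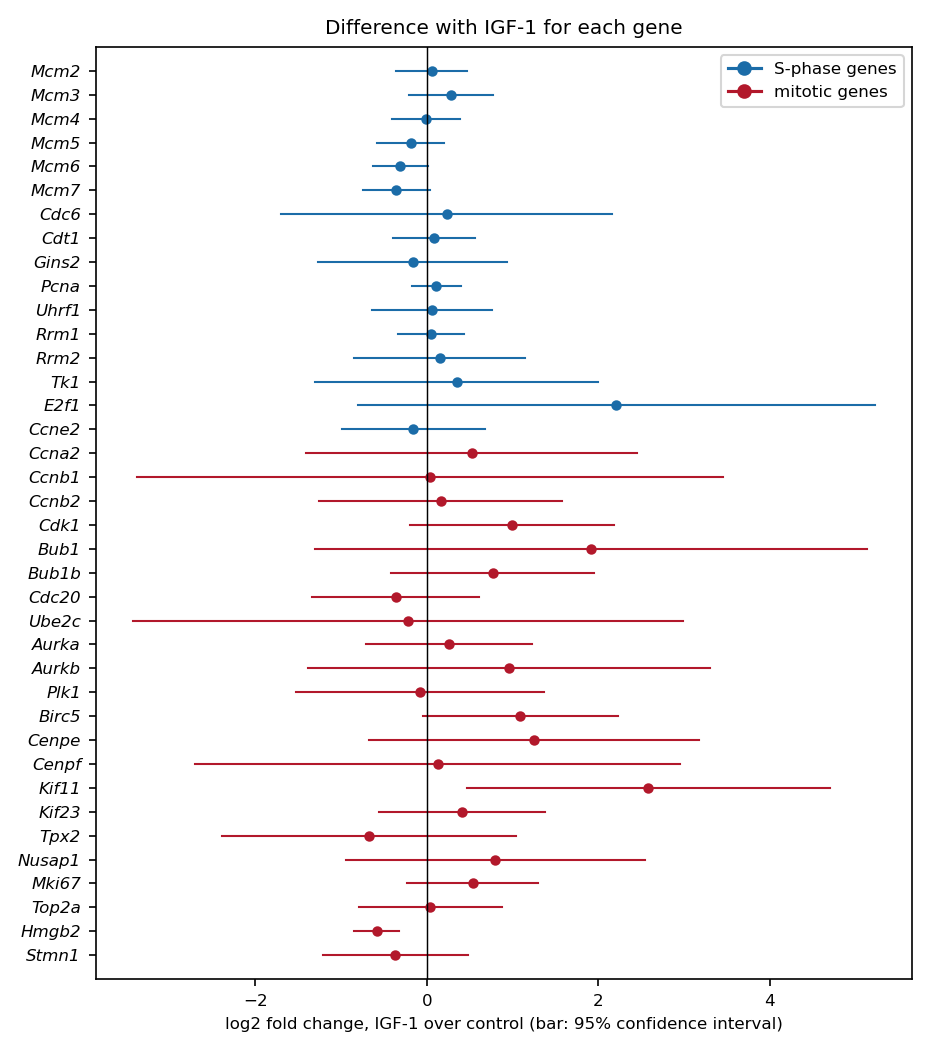
Log2 fold change of IGF-1 over control for each gene (points) with its 95% confidence interval (bars) from edgeR. Intervals are narrow for Pcna, the Mcm genes, Rrm1 and Hmgb2 and several log2 units wide for Bub1, Ccnb1 and Ube2c; those of Hmgb2 and Kif11 alone lie entirely on one side of 0, before adjustment.

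Hmgb2 had the smallest p of the 38. It was at 171, 154 and 149 CPM in control and at 106, 109 and 101 CPM with IGF-1, and every IGF-1 library was below every control library. The log2 fold change was -0.58 (SE 0.12, 95% interval -0.84 to -0.33), a difference of -33.3%, and its adjusted p of 0.0719 missed the threshold. It passed with DESeq2 (adjusted p = 0.000704), limma-voom (0.0473), library size scaling (0.0470), no low count filter (0.00950) and a filter of 10 CPM in 3 libraries (0.0183). Its adjusted p was 0.0833 to 0.318 in the fits that each left out 1 library, and its log2 fold change stayed between -0.63 and -0.53 in all 13 alternatives. Stmn1, a tubulin-binding protein grouped with it, was at 14.2, 12.0 and 9.28 CPM against 8.19, 4.64 and 14.6 CPM, overlapping (log2 fold change -0.36, SE 0.38).

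The proliferation marker Mki67 was at 4.91, 8.64 and 5.6 CPM in control and at 9.55, 6.12 and 12.1 CPM with IGF-1. The groups overlapped, and the log2 fold change of 0.53 (SE 0.34, 95% interval -0.23 to 1.30, adjusted p = 0.602) did not pass. Top2a was at 5.10, 14.6 and 7.66 CPM against 9.94, 10.8 and 7.37 CPM, with control libraries both below and above all IGF-1 libraries (log2 fold change 0.04, SE 0.37, and -0.01 with library size scaling).

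Among the cyclins and their kinase, Cdk1, which drives entry into mitosis, was at 1.77, 1.17 and 1.67 CPM in control and at 1.83, 3.10 and 4.28 CPM with IGF-1. The groups did not overlap, though IGF-1 replicate 1 was close to the control libraries, and the difference was not called (log2 fold change 1.00, SE 0.54, adjusted p = 0.514). Cyclin B2 (Ccnb2) was at 1.5, 2.00 and 1.70 CPM against 2.96, 0.725 and 2.14 CPM, where IGF-1 libraries were both the lowest and the highest (log2 fold change 0.16, and -0.02 with the replicate number as a block). Cyclin A2 (Ccna2) stood at 0.955 ± 0.41 and 1.37 ± 1.42 CPM and rested on IGF-1 replicate 1, without which its log2 fold change was -0.78. Cyclin B1 (Ccnb1) had 0 counts in control replicate 1 and in IGF-1 replicate 2, and 34 to 81 counts in the other 4 libraries.

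The checkpoint genes and the anaphase-promoting complex genes had wide spreads. Bub1b (BubR1), which delays anaphase until chromosomes attach, was at 3.84, 1.55 and 2.12 CPM against 2.47, 3.36 and 6.97 CPM (log2 fold change 0.77, SE 0.53, adjusted p = 0.637). Cdc20, an activator of the anaphase-promoting complex, was at 9.67, 5.23 and 3.73 CPM against 3.97, 3.45 and 7.08 CPM (-0.36, SE 0.44), and without control replicate 1 its log2 fold change was 0.11. For both genes the groups overlapped. Bub1 had 16, 0 and 0 counts in control and 21, 23 and 17 with IGF-1, a difference on few reads that was not called (adjusted p = 0.672). Ube2c, the ubiquitin-conjugating enzyme of the same complex, had 47, 22 and 1 counts against 16, 0 and 47.

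Of the mitotic kinases and the chromosomal passenger genes, Birc5 was the most even with IGF-1. Birc5 (survivin), the passenger subunit that carries Aurora B, was at 1.18, 2.87 and 1.20 CPM in control and at 3.84, 3.77 and 3.58 CPM with IGF-1. Every IGF-1 library was above every control library (log2 fold change 1.09, SE 0.51, 95% interval -0.04 to 2.23, adjusted p = 0.441), which did not pass. Aurora B itself (Aurkb) had 55, 23 and 12 counts against 63, 3 and 118, with both extremes in the IGF-1 group. Aurka, the spindle pole kinase, was at 3.44, 4.78 and 3.26 CPM against 3.66, 7.19 and 2.94 CPM, and its log2 fold change of 0.26 became -0.22 without IGF-1 replicate 2. The Polo kinase Plk1 stood at 1.62 ± 0.43 and 1.53 ± 0.90 CPM.

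Of the spindle and kinetochore genes Kif11 differed most. Kif11, the kinesin that pushes spindle poles apart, had 20, 22 and 1 counts in control (0.537, 0.658 and 0.0279 CPM) and 131, 42 and 104 with IGF-1 (3.37, 1.22 and 2.78 CPM). Every IGF-1 library was above every control library, with a log2 fold change of 2.58 (SE 0.96, 95% interval 0.47 to 4.70). The adjusted p of 0.309 from edgeR did not pass, nor did any of the alternatives that gave an adjusted p (0.125 to 0.638; DESeq2 gave none). Kif23, a kinesin of the central spindle, was at 2.82, 2.60 and 2.15 CPM against 4.17, 2.58 and 3.29 CPM, overlapping (log2 fold change 0.41, SE 0.44). Nusap1, which bundles spindle microtubules, was at 1.72, 1.73 and 0.334 CPM against 2.57, 0.754 and 3.26 CPM, again overlapping (0.80, SE 0.79). Tpx2, the activator of Aurora A, stood at 1.89 ± 1.22 and 1.19 ± 0.82 CPM, Cenpe at 0.924 ± 0.67 and 2.2 ± 1.59 CPM, and Cenpf, with 1 to 83 counts per library, at 1.06 ± 1.11 and 1.16 ± 1.12 CPM.

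Over the 22 mitotic genes the median log2 fold change was 0.34, with 16 positive and 6 negative, where 48.7% of all genes tested were positive. Their median SE was 0.65 on the log2 scale against 0.22 for the S-phase genes and 0.21 over all genes tested, and the median 95% interval reached 1.43 to either side. For a typical mitotic gene a change smaller than that could not be shown at this depth and spread. Single libraries weighed on many genes: IGF-1 replicate 3 was the highest of the 6 in 8 mitotic genes and IGF-1 replicate 2 the lowest in 7. Without IGF-1 replicate 2 the mitotic median was 0.59, without control replicate 2 it was 0.53 and without IGF-1 replicate 1 it was 0.19.

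The summed level gave the other direction because Hmgb2 makes up most of it. The 22 mitotic genes summed to 231, 220 and 197 CPM in control and to 176, 164 and 184 CPM with IGF-1, without overlap. Without Hmgb2, a choice made after the values were seen, the other 21 summed to 60.2, 65.9 and 48.3 CPM in control and to 69.8, 54.9 and 83.5 CPM with IGF-1, with overlap. The 16 S-phase genes summed to 479, 497 and 489 CPM in control and to 427, 477 and 516 CPM with IGF-1, so that IGF-1 libraries were both the lowest and the highest.

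**Figure D5:**
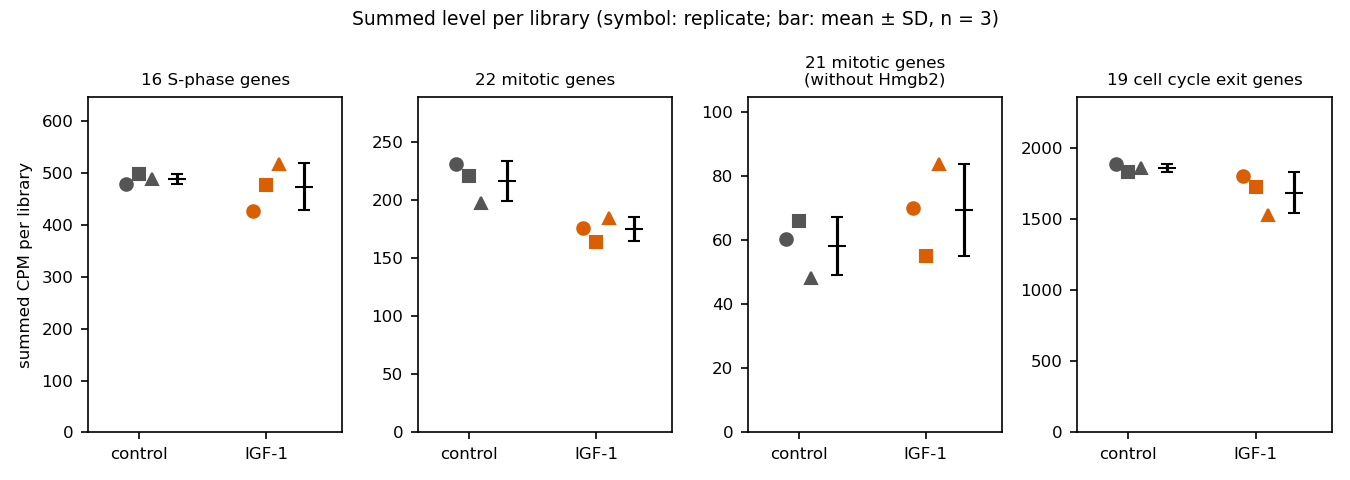
Summed TMM-scaled CPM per library (y axis from 0) of the 16 S-phase genes, the 22 mitotic genes, the same without Hmgb2 and 19 cell cycle exit genes, in control and IGF-1 libraries. Symbols are libraries and bars the mean ± SD (n = 3). Groups separate in the second panel (197 to 231 against 164 to 184 CPM) and overlap in the third, where Hmgb2 is left out. They also separate in the fourth (1831 to 1888 against 1530 to 1806 CPM), where Btg1 is the most abundant gene.

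No further gene of the same pathways was called by edgeR. Of 45 further replication genes 44 were tested, and 0 passed over all genes, with 24 positive, 20 negative and a median log2 fold change of 0.04. Those with the smallest p were Cdc45, which completes the active helicase (3.35 ± 0.78 and 6.25 ± 0.77 CPM, 0.90, SE 0.35, adjusted p = 0.336), the polymerase alpha subunit Pola2 (-0.42, SE 0.17, adjusted p = 0.353) and Tipin, a fork protection protein (0.29, SE 0.12, adjusted p = 0.364). Of the 44 replication genes 7 were higher and 4 lower without overlap, against 8.81% and 9.17% of all genes tested. That list summed to 1482 to 1531 CPM in control and to 1556 to 1594 CPM with IGF-1. Of 59 further mitosis genes 48 were tested and 0 passed, with 25 positive, 23 negative and a median of 0.05. They summed to 1686 to 1725 CPM and to 1859 to 1976 CPM. The most abundant were H2az1 (means of 327 and 362 CPM), Tubb5 (256 and 346 CPM) and Tuba1b (229 and 299 CPM). The sums were not tested. At an unadjusted p under 0.05 there were 6 in each list, again against 11.8% of all genes.

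Among the further mitosis genes Ckap2l had 33, 50 and 22 counts in control and 4, 1 and 0 with IGF-1 (adjusted p = 0.179). Tubb5, a beta tubulin made in all cells, stood at 256 ± 15.3 and 346 ± 47.6 CPM (0.44, SE 0.13, adjusted p = 0.204). For Cks1b, a small CDK-binding subunit, the means were 28.4 ± 6.56 and 45.0 ± 8.95 CPM (0.67, SE 0.21, adjusted p = 0.229). In all 3 the groups did not overlap, but these genes were picked for the smallest p. Of the 48 tested 5 were higher and 3 lower without overlap. Over all genes tested the shares were 8.81% and 9.17%. DESeq2 called Tubb5 (adjusted p = 0.0378), and the fit without a low count filter called Cks1b (adjusted p = 0.0231).

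Genes linked to leaving the cell cycle had a negative median. Of 19 genes 18 were tested and 0 passed, with 10 negative, 8 positive and a median of -0.22. In 4 of the 18 the groups did not overlap, all 4 lower with IGF-1. Over all genes tested 18.0% did not overlap in either direction, and 9.17% were lower without overlap. Btg2, an antiproliferative factor, stood at 142 ± 26.7 and 93.1 ± 6.57 CPM (-0.61, SE 0.15, adjusted p = 0.139). The CDK inhibitor p27 (Cdkn1b) was at 33.4, 34.5 and 38.2 CPM in control and 28.2, 19.1 and 12.1 CPM with IGF-1 (-0.84, SE 0.27, adjusted p = 0.237). Cyclin G2 (Ccng2) had a mean of 60.1 ± 5.59 CPM in control and 39.1 ± 12.0 CPM with IGF-1 (-0.62, SE 0.21, adjusted p = 0.280). The list's sum was 1831 to 1888 CPM in control and 1530 to 1806 CPM with IGF-1, and it rests in large part on Btg1. Btg1 was at 908, 1040 and 969 CPM in control and at 1004, 926 and 689 CPM with IGF-1, with overlap (adjusted p = 0.749 from edgeR). DESeq2 called Btg2 (adjusted p = 0.00804) and Cdkn1b (0.0489), each lower. Over all 13 alternatives, DESeq2 among them, Btg2 passed in 3, Cdkn1b in 2 and Ccng2 in 1, each lower.

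Markers of other cell types were checked too, although the sort on CD45, CD90.2 and the absence of lineage markers is meant to remove most of them. In bulk samples a change in the number of cells of a type and a change in RNA per cell cannot be told apart. ILC3 markers summed to 5353 to 5729 CPM in control and 5793 to 6284 CPM with IGF-1, and all 14 were tested. Of 11 epithelial markers 4 were frequent enough to test; the list summed to 33.7 to 49.5 CPM in control and 14.8 to 22.2 CPM with IGF-1, almost all of it Epcam, while the crypt genes Lgr5 and Olfm4 had at most 0.390 and 0.994 CPM in any library. The B and plasma cell list summed to 35 to 63.7 CPM in 5 libraries and to 572 CPM in control replicate 3, where Jchain, the joining chain of secreted antibody, was at 519 CPM against 0.103 to 0.209 CPM elsewhere. Of 10 T cell markers 5 could be tested, and 0 passed. The list summed to 106 to 133 CPM in control and 121 to 157 CPM with IGF-1, mostly Lat. Means in control and with IGF-1 were 69.8 and 98.5 CPM for Lat, and 33.3 and 23.1 CPM for Cd4. For Cd3g they were 9.01 and 13.3 CPM, for Cd3d 2.35 and 4.88 CPM and for Cd3e 0.833 and 0.715 CPM. The groups overlapped for each but Cd4, which was lower with IGF-1. The NK cell and ILC1 list summed to 70.2 to 87.4 CPM in control and to 111 to 136 CPM with IGF-1, with Eomes and Klra8 at 0. Its most abundant gene, Ncr1, was at 29.5, 27.8 and 27.4 CPM in control and at 68.4, 66.9 and 79.1 CPM with IGF-1. Of the 6 genes of this list that were tested, edgeR called 1, Ncr1, higher. The part of these cell types in the results was not tested. Without control replicate 3, the library high in Jchain, the log2 fold change was -0.63 for Hmgb2 and 2.03 for Kif11.

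Among signs of RNA quality, nuclear long noncoding RNAs summed to 1578, 2860 and 2671 CPM in control and to 1677, 1160 and 2209 CPM with IGF-1. Mitochondrially encoded mRNAs summed to 15141 to 19584 CPM and 19003 to 22398 CPM. These overlapped between groups, and their part in the members' spread was not tested.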

How the data were processed

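Sorted ILC3s in 2 groups of 3 libraries were sequenced with a SMART-Seq HT kit, per the labels. The authors deposited raw read counts per gene. The submitters' processing notes name fastp 0.23.2, HISAT2 2.2.1, SAMtools 1.15.1, featureCounts 1.5.3 and GRCm39. No source used here gives the settings for strand or for reads matching several genes, so members with near-identical copies or antisense partners are uncertain.

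Counts of all 33157 rows (9897 without a count) were filtered with edgeR 4.0.16 (filterByExpr, minimum count 10, minimum total 15), scaled by TMM and tested with the quasi-likelihood test (group only), with Benjamini-Hochberg adjustment over 13483 genes and a threshold of 0.05. A gene's SE is its log2 fold change divided by the root of its F. Alternatives used the replicate number as a block, RLE or library size scaling, DESeq2 1.42.0, limma-voom (limma 3.58.1), other filters and leaving out each library, in R 4.3.3. On simulated counts with 200 changed genes among 13483, edgeR recovered 68% at a log2 change of 1 and 78% at 2, with 8 false calls. The changed genes were drawn at random from all genes with a mean of at least 1 CPM. Recovery was not measured for the mitotic genes, whose median SE was 0.65 against 0.21 over all genes tested. These percentages therefore do not apply to them. An exact test of a single value in 3 against 3 cannot go below p = 0.1.

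The members and gene lists were chosen with earlier results of these data known. Genes with every library's value are the 2 most abundant of each role list, those with an unadjusted p under 0.05 and those whose groups did not overlap. Of each further pathway list the 3 with the smallest p are named. Values by library of Mki67, Top2a, E2f1, Ube2c, Aurkb, Ccnb1, Cdkn1b and Ckap2l were added after they were seen. Libraries correlated at 0.947 to 0.958 within and 0.941 to 0.953 between groups, and counts differed within groups by more than sampling noise.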

Additional observations from a re-analysis of the deposited data

How the results depend on the processing

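One member, Hmgb2 (lower), was called with library size scaling, DESeq2, limma-voom, no low count filter, the filter of 10 CPM in 3 libraries, and an adjusted p under 0.1 (1 each), and 0 in the other alternatives. Of the further pathway genes DESeq2 called 3, no filter 4 and the 10 CPM filter 1. Over all genes 67 were called, 456 with DESeq2, 429 with no filter, 178 with the 10 CPM filter, and 0 to 55 without 1 library. A pairing of libraries by replicate number was not detected (correlations of deviations -0.05, 0.00 and 0.06, and replicate 3 alone matched its own number best). With 3 libraries a group this cannot exclude a pairing, and the labels do not state one. With the replicate number as a block 0 members and 8 genes were called, the members' median was 0.14, and Ccnb2 reversed to -0.019. Top2a reversed to -0.0062 with library size scaling.

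The members' median of 0.12 ranged over leave-one-out fits from 0.089 to 0.29, the S-phase median from -0.05 to 0.11 and the mitotic median from 0.19 to 0.59, and with the 10 CPM filter, which kept Hmgb2 and Stmn1, the mitotic median was -0.48. The log2 ratio of S-phase sums was -0.04 (leave-one-out -0.11 to 0.02) and 0.082 as a mean of log2 CPM. For mitotic sums it was -0.31 (-0.37 to -0.26), 0.27 as a mean of log2 CPM and 0.26 without Hmgb2. Of 38 members 19 changed sign when 1 library was left out. Their ranges were Mcm2 -0.094 to 0.17, Mcm4 -0.21 to 0.093, Cdc6 -0.31 to 0.98, Cdt1 -0.072 to 0.33, Gins2 -0.70 to 0.21, Uhrf1 -0.13 to 0.37, Rrm1 -0.060 to 0.21, Rrm2 -0.17 to 0.43, Tk1 -0.37 to 0.88 and Ccne2 -0.39 to 0.090. For mitotic genes they were Ccna2 -0.78 to 0.94, Ccnb1 -1.16 to 0.76, Ccnb2 -0.28 to 0.55, Cdc20 -0.74 to 0.11, Ube2c -1.63 to 0.69, Aurka -0.22 to 0.50, Plk1 -0.67 to 0.16, Cenpf -0.87 to 1.27 and Top2a -0.25 to 0.55. The cause was not tested. Of the 38 members 27 had a mean under 10 CPM.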
